A study of Homo sapiens with 32 samples.

Results

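The genes described here are 8 integrin subunits and 1 laminin chain: the alpha subunits ITGA2, ITGA3, ITGA5, ITGA6 and ITGAV, the beta subunits ITGB1, ITGB4 and ITGB6, and the laminin beta chain LAMB3. They were taken by gene symbol, from a set put together with earlier results of these data known, and are 9 of the 25498 genes in the deposited tables. All 9 passed the filter on low counts, as did 16995 genes in all.

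RNA was sequenced from LNCaP cells, an androgen-dependent prostate cancer line derived from a nodal metastasis, in 8 groups of 4 libraries, with 2 libraries of each group in each of 2 batches. Cells of the FBS group stayed in RPMI medium with fetal bovine serum. The other 7 groups were moved overnight to the same medium with charcoal-stripped serum (CSS), which is depleted of steroid hormones, and were then left untreated (the CSS group) or given EGF or NRG-1 at 100 ng/mL for 5 minutes, 1 hour or 4 hours. EGF is a ligand of EGFR and NRG-1 of HER3 and HER4, receptors that can each pair with HER2. The labels give each library a batch and a replicate number and name a single cell line. The p values therefore measure the spread between libraries of this line only. The EGF and NRG-1 comparisons share the same 4 CSS libraries.

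Integrins are receptors made of 1 alpha and 1 beta subunit that anchor cells to the extracellular matrix and signal from it. The alpha subunit largely sets the ligand: ITGA2 with ITGB1 binds collagen, ITGA3 and ITGA6 bind laminin, ITGA5 binds fibronectin, and ITGAV binds fibronectin, vitronectin and latent TGF-beta. ITGB4 pairs with ITGA6 in hemidesmosomes, whose ligand is the basement membrane laminin of which LAMB3 and LAMA3 are chains. In the normal prostate these laminin receptors lie mainly in the basal cell layer, whereas LNCaP cells are luminal in character.

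The luminal character was present in all libraries. All 8 luminal markers examined (among them KLK3, HOXB13, FOLH1, TMPRSS2, KRT8 and KRT18) were detected, with a summed level of 3015 to 5898 TPM (a level that accounts for the length of a transcript and the size of the library). The 14 markers of basal, stromal, endothelial and blood cells summed to 1.73 to 4.80 TPM per library. Of the basal markers, KRT5 never exceeded 0.02 TPM, TP63 0.03 TPM, KRT15 0.20 TPM and KRT14 2.17 TPM. Total counts were 63822654 to 92401724 per library.

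ITGB6, LAMB3 and ITGA2 rose most after 4 hours of ligand, and the DNA just upstream of their starts is shown for that reason. The sequences are from RefSeq (build GRCh38.p14) and cover bases -200 to -45 from an annotated transcript start, on the strand of the gene. Capitals mark a CArG box (the binding motif of SRF) in ITGB6 and an AP-1 motif in LAMB3, and the ITGA2 stretch holds no capitals because no searched motif matched.
ITGB6 (chr2:160200317-160200472, minus strand): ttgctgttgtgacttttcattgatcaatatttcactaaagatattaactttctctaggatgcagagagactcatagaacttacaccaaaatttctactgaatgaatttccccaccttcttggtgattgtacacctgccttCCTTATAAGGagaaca
LAMB3 (chr1:209651419-209651574, minus strand): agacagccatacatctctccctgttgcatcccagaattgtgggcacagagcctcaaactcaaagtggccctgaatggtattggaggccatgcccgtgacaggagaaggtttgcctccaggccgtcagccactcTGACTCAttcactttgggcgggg
ITGA2 (chr5:52989152-52989307, plus strand): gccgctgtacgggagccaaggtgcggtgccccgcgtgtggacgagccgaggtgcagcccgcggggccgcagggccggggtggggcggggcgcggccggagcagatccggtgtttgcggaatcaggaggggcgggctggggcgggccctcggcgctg

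Both strands of the window from 250 bases before to 50 bases after each listed start were searched for TGANTCA (AP-1), CCGGAA (ETS factors) and the CArG box, in 7 of the 9 genes. ITGA3 and ITGB4 had no entry. The AP-1 motif occurred in ITGA5 and LAMB3 and in 7.71% of the 35116 windows of all genes. A gene is counted here and below if any of its listed starts had a match, whereas the shares are of windows. LAMB3, ITGA6, ITGAV and ITGB1 had several listed starts, so that genes and shares are in unlike units. The LAMB3 match lies at -67 to -61 from the third listed start, and the windows of the other LAMB3 starts held none. ETS matches occurred in ITGA6 and ITGB1 and in 17.2% of all windows. The CArG box occurred only in ITGB6 among the 7 genes, at -60 to -51, and in 1.29% of all windows. These matches describe letters in the reference and not binding in these cells.

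In CSS, ITGB1 was by far the most abundant of the 9 mRNAs at 318 ± 13.8 TPM (SD, n = 4). The 5 alpha subunits together reached 65.1 ± 4.13 TPM, and ITGB1 was thus 4.89 ± 0.176 times their sum. Among them ITGAV made up 41.9 ± 3.62% of the summed alpha TPM, ITGA6 26.9 ± 2.59%, ITGA5 19.5 ± 1.23%, ITGA3 7.14 ± 1.05% and ITGA2 4.55 ± 0.535%. ITGB4 (0.880 ± 0.109 TPM), LAMB3 (0.362 ± 0.0685 TPM) and ITGB6 (0.0375 ± 0.0126 TPM) were the lowest. The ITGB6 value rests on 5 to 11 reads per library.

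**Figure D1:**
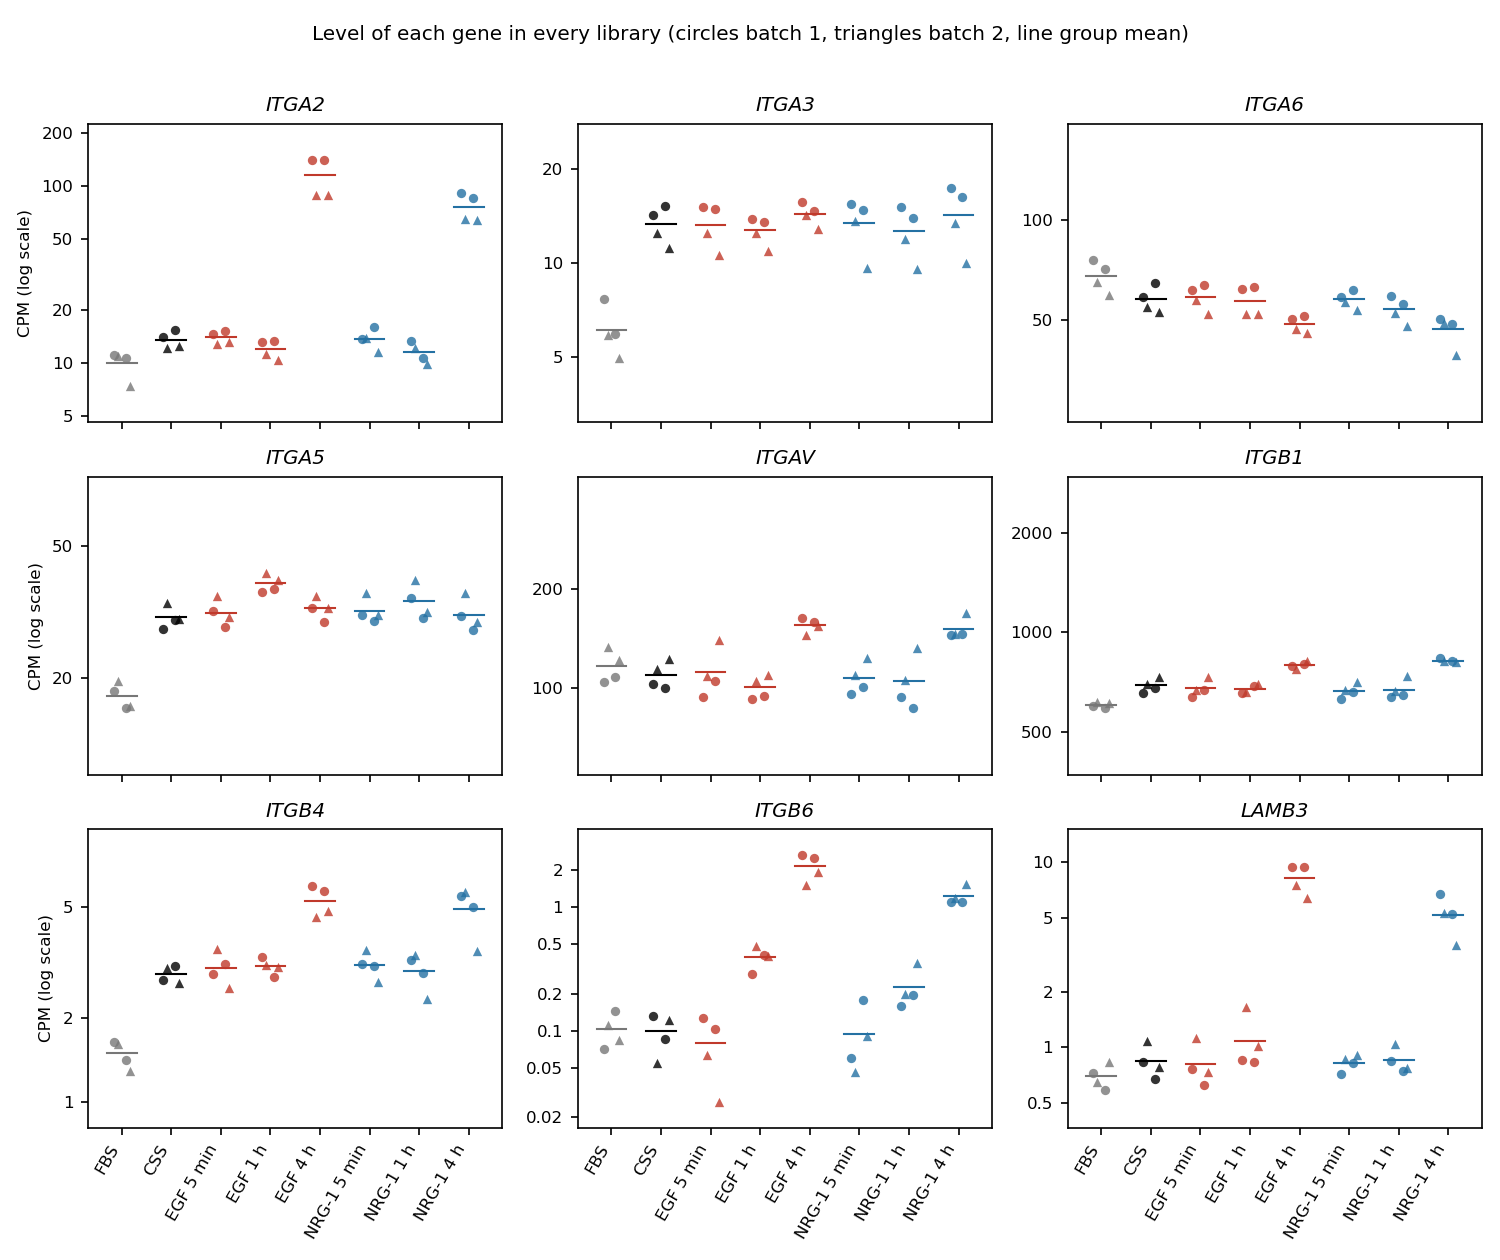
Level of each of the 9 genes in every library, in CPM (log axis), by group; circles are batch 1, triangles batch 2 and lines group means. ITGA2, ITGB6 and LAMB3 stand far above CSS at 4 hours with either ligand, ITGB6 is already above CSS at 1 hour of EGF, and ITGA3, ITGA5 and ITGB4 are lowest in FBS.

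At 5 minutes 0 of the 9 genes passed the test against CSS with either ligand, and 0 had an unadjusted p below 0.05 by edgeR. DESeq2 and limma also called 0. Here and below, limma with its minimum of 1 TPM did not test ITGB6, which stayed below that level in every library. Over all genes tested, 0.00588% differed with EGF and 0% with NRG-1 (edgeR's quasi-likelihood test with Benjamini-Hochberg adjustment, adjusted p below 0.05).

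At 1 hour of EGF, 2 of the 9 genes were higher than in CSS and 0 were lower, against 9.51% of all genes tested called in either direction. They were ITGB6, the beta subunit that pairs with ITGAV to bind and activate latent TGF-beta, and ITGA5, the fibronectin receptor subunit. ITGB6 alone met the limits for a differentially expressed gene (DEG: a log2 fold change beyond 1 at an adjusted p below 0.05), against 1.46% of all genes that were higher DEGs. In bulk RNA, more cells of a kind and more RNA per cell cannot be told apart. In the values that follow, the first 2 libraries of each group are from batch 1 and the last 2 from batch 2, in CPM (reads scaled to the size of the library).

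ITGB6 was at 0.133, 0.0859, 0.0553 and 0.121 CPM in CSS and at 0.289, 0.409, 0.488 and 0.405 CPM after 1 hour of EGF (23 to 40 reads). Every EGF library was above every CSS library. The log2 fold change was 2.00 (SE 0.38, 95% CI 1.22 to 2.78, edgeR adjusted p = 0.000128), and it was 1.63 within batch 1 and 2.34 within batch 2.

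ITGA5 was at 28.1, 29.9, 33.8 and 30.1 CPM in CSS and at 36.4, 37.2, 41.4 and 39.6 CPM with EGF. These groups did not overlap either, and the log2 fold change was 0.34 (SE 0.08, edgeR adjusted p = 0.00198). Within batch 2 alone it was 0.35 with an adjusted p of 0.440, and limma on log2(TPM + 1) gave 0.36 with an adjusted p of 0.105. At 4 hours of EGF ITGA5 stood at 32.5 ± 2.43 CPM and was lower than at 1 hour (log2 fold change -0.25, edgeR adjusted p = 0.00795).

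At 1 hour of NRG-1, 0 of the 9 genes passed the test, against 6.73% of all genes tested, although 3 had an unadjusted p below 0.05 by edgeR. DESeq2 called 1, which was ITGB6, and limma, which did not test ITGB6, called 0. ITGB6 read 0.159, 0.196, 0.200 and 0.352 CPM, each above every CSS library, with a log2 fold change of 1.20 (SE 0.39) and an adjusted p of 0.0521 by edgeR. With the replicate block, a term for each same-numbered set of libraries within a batch, the adjusted p was 0.0327 for ITGB6 and 0.0163 for ITGA5 (log2 fold change 0.16). Without batch 1 replicate 1 of this group, ITGB6 passed as well (1.36, adjusted p = 0.0339).

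After 4 hours of EGF, 6 of the 9 genes were higher than in CSS and 1 was lower, against 24.6% and 24.6% of all genes tested. ITGB6, LAMB3 and ITGA2 were DEGs, against 5.86% of all genes that were higher DEGs. ITGB4, ITGAV and ITGB1 rose by less, ITGA6 fell, and ITGA3 and ITGA5 did not pass. After 4 hours of NRG-1 the counts were again 6 higher, 1 lower and 3 DEGs, against 21.6% higher, 21.0% lower and 4.87% higher DEGs among all genes. The median log2 fold change of the 9 genes was 0.51 with EGF and 0.46 with NRG-1, and that of all genes tested was -0.02 and -0.01.

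ITGA2, the alpha subunit of the main collagen receptor, was at 13.9, 15.3, 12.1 and 12.4 CPM in CSS. After 4 hours it read 141, 141, 88.7 and 89.7 CPM with EGF and 91.4, 85.3, 64.9 and 64.4 CPM with NRG-1. All 8 libraries lay far above CSS, and the batch 1 libraries were higher than those of batch 2 with each ligand. The log2 fold change was 3.08 (SE 0.10, 8.44-fold, edgeR adjusted p = 3.45e-19) with EGF and 2.50 (SE 0.10, 5.65-fold, edgeR adjusted p = 3.63e-17) with NRG-1. The EGF value was 3.27 within batch 1 and 2.89 within batch 2, and the NRG-1 value 2.59 and 2.41. At 1 hour ITGA2 had been at 12.0 ± 1.45 CPM with EGF and 11.5 ± 1.54 CPM with NRG-1, both overlapping CSS.

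Among the laminin-binding alpha subunits, ITGA6 fell slightly and ITGA3 did not pass. ITGA6 was at 58.7, 64.8, 54.6 and 52.8 CPM in CSS, 50.2, 51.5, 47.0 and 45.7 CPM at 4 hours of EGF, and 50.4, 48.5, 49.0 and 39.2 CPM at 4 hours of NRG-1. Neither ligand group overlapped CSS. The log2 fold changes were -0.25 (SE 0.05, edgeR adjusted p = 0.000424) and -0.30 (SE 0.05, edgeR adjusted p = 4.73e-05). The last NRG-1 library stood apart from the others of its group, and without it the NRG-1 value was -0.25 (edgeR adjusted p = 0.000175). Within batch 2 alone the values were -0.19 and -0.27 and did not pass (adjusted p = 0.268 and 0.135). ITGA3 stood at 13.3 ± 1.83 CPM in CSS, 14.3 ± 1.18 with EGF and 14.2 ± 3.30 with NRG-1, with intervals of the log2 difference from -0.09 to 0.33 and from -0.12 to 0.31.

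ITGAV was at 103, 100.2, 115 and 122 CPM in CSS, at 163, 159, 145 and 155 CPM at 4 hours of EGF, and at 145, 146, 146 and 169.7 CPM at 4 hours of NRG-1. Both ligand groups lay above CSS, with log2 fold changes of 0.51 (SE 0.08, edgeR adjusted p = 1.09e-05) and 0.46 (SE 0.08, edgeR adjusted p = 5.10e-05). The last NRG-1 library was the highest and stood apart, and without it the NRG-1 value was 0.44 (edgeR adjusted p = 0.000368). The EGF value was 0.66 within batch 1 and 0.36 within batch 2 (adjusted p = 0.0988), and the NRG-1 value 0.51 and 0.43 (adjusted p = 0.0705 in batch 2). ITGA5, the other subunit of this kind, did not pass against CSS at 4 hours (0.09 ± 0.08 and 0.03 ± 0.08, log2 fold change ± SE).

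ITGB1, the common partner of most of these alpha subunits, was at 656, 679, 699 and 732 CPM in CSS. It was at 791, 800.5, 773 and 821 CPM with EGF and at 836, 821, 817 and 812 CPM with NRG-1 at 4 hours. The groups did not overlap, yet the rise was small: 0.20 (SE 0.04, edgeR adjusted p = 0.000338) and 0.25 (SE 0.04, edgeR adjusted p = 3.77e-05) on the log2 scale. On log2(TPM + 1) with limma it was 0.13 and 0.15 and did not pass (adjusted p = 0.0981 and 0.0683). Nor did it pass within batch 2 alone (0.18 and 0.20, adjusted p = 0.184 and 0.168).

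ITGB4, the hemidesmosome subunit, was at 2.73, 3.07, 3.02 and 2.66 CPM in CSS. It was at 5.91, 5.69, 4.58 and 4.81 CPM with EGF and at 5.47, 4.97, 5.63 and 3.46 CPM with NRG-1 at 4 hours. Every ligand library was above every CSS library, with log2 fold changes of 0.87 (SE 0.13, edgeR adjusted p = 1.40e-06) and 0.77 (SE 0.13, edgeR adjusted p = 1.34e-05). Within batch 2 alone they were 0.75 and 0.70 and did not pass (adjusted p = 0.0525 and 0.0901).

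ITGB6 changed by the largest factor of the 9 genes. From the CSS values given above it reached 2.66, 2.50, 1.50 and 1.93 CPM at 4 hours of EGF (119 to 220 reads) and 1.11, 1.10, 1.19 and 1.55 CPM at 4 hours of NRG-1 (78 to 101 reads). The log2 fold change was 4.42 (SE 0.35, 21.4-fold, edgeR adjusted p = 5.72e-13) with EGF and 3.63 (SE 0.36, 12.3-fold, edgeR adjusted p = 1.17e-10) with NRG-1. Its level nevertheless stayed low, at 0.772 ± 0.184 and 0.435 ± 0.0370 TPM, below that of ITGB4 (1.53 ± 0.179 and 1.42 ± 0.387 TPM). ITGB6 rose with each ligand between 1 and 4 hours (2.42, SE 0.25, and 2.42, SE 0.28), and the difference between these steps was close to 0 with a wide interval (95% CI -0.78 to 0.77).

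LAMB3, the laminin chain, was at 0.835, 0.673, 1.08 and 0.789 CPM in CSS. It read 9.32, 9.32, 7.48 and 6.34 CPM at 4 hours of EGF and 6.66, 5.24, 5.27 and 3.55 CPM at 4 hours of NRG-1. All ligand libraries were above CSS, with log2 fold changes of 3.26 (SE 0.20, 9.57-fold, edgeR adjusted p = 1.35e-13) and 2.61 (SE 0.21, 6.11-fold, edgeR adjusted p = 2.38e-11). The EGF value was 3.61 within batch 1 and 2.90 within batch 2, and the NRG-1 value 2.97 and 2.25. At 1 hour LAMB3 had not passed (0.36, SE 0.23, with EGF and 0.01, SE 0.23, with NRG-1).

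**Figure D2:**
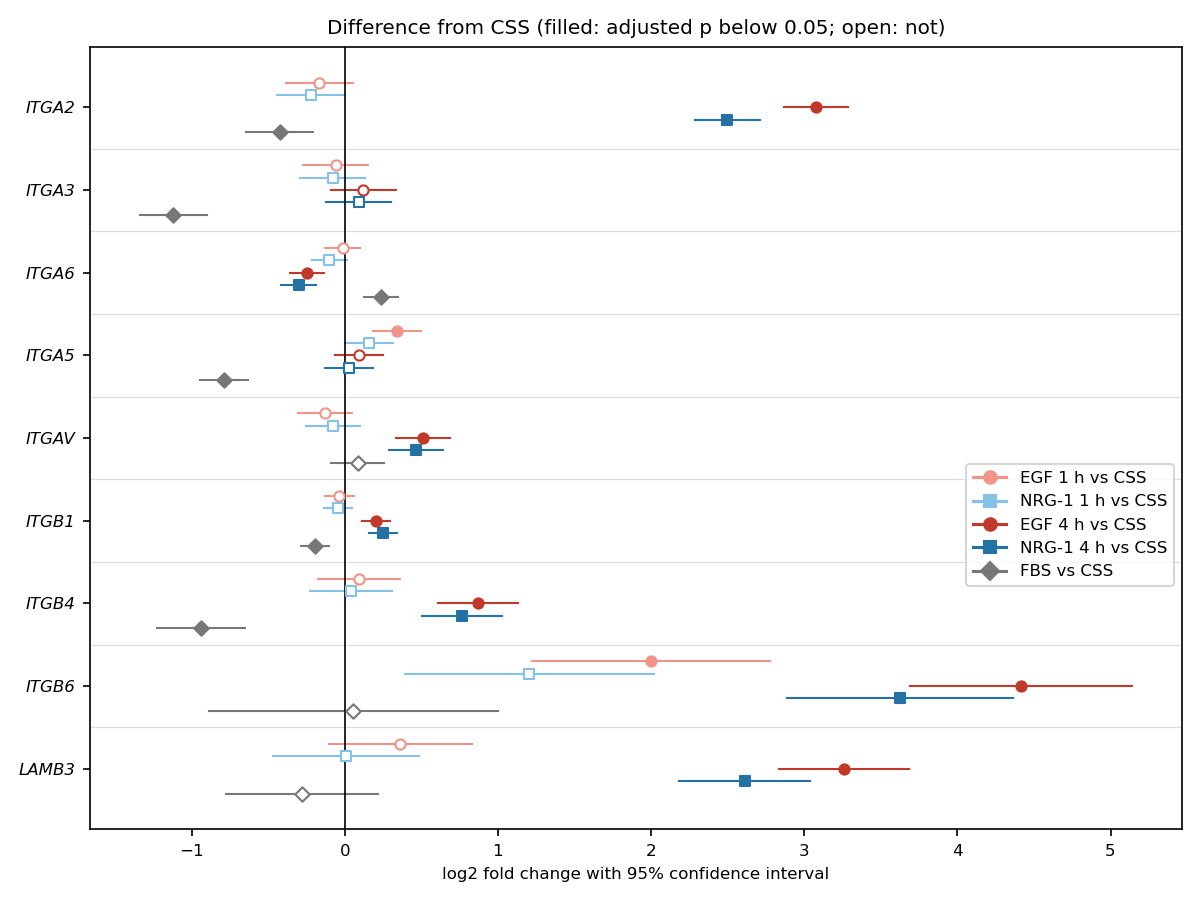
Log2 fold change of each gene against CSS with its 95% confidence interval, for EGF and NRG-1 at 1 hour and 4 hours and for FBS; filled symbols passed the test (adjusted p below 0.05) and open symbols did not. ITGB6 (4.42 and 3.63), LAMB3 (3.26 and 2.61) and ITGA2 (3.08 and 2.50) lie far to the right at 4 hours, ITGA6 lies left of 0 at 4 hours and right of 0 in FBS, and ITGA3, ITGA5 and ITGB4 lie left of 0 in FBS.

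The make-up of the alpha subunit mRNAs at 4 hours was unlike that in CSS, with more ITGA2 and less ITGA6. The share of ITGA2 in the summed alpha TPM was 4.55 ± 0.535% in CSS, 25.8 ± 4.49% at 4 hours of EGF and 19.4 ± 2.96% at 4 hours of NRG-1 (SD, n = 4). The share of ITGA6 was 26.9 ± 2.59% in CSS, 15.2 ± 0.648% with EGF and 16.4 ± 1.48% with NRG-1, and the ranges of these groups did not overlap that of CSS. The share of ITGAV stayed between 38.0 ± 2.96% and 43.4 ± 4.56% in the 7 groups in CSS. ITGA5 had its highest share at 1 hour of EGF (24.6 ± 1.25%). ITGB1 stood at 4.89 ± 0.176 times the summed alpha TPM in CSS, 3.80 ± 0.357 times at 4 hours of EGF and 4.38 ± 0.0923 times at 4 hours of NRG-1. These shares are descriptions without a test, and protein was not measured.

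**Figure D3:**
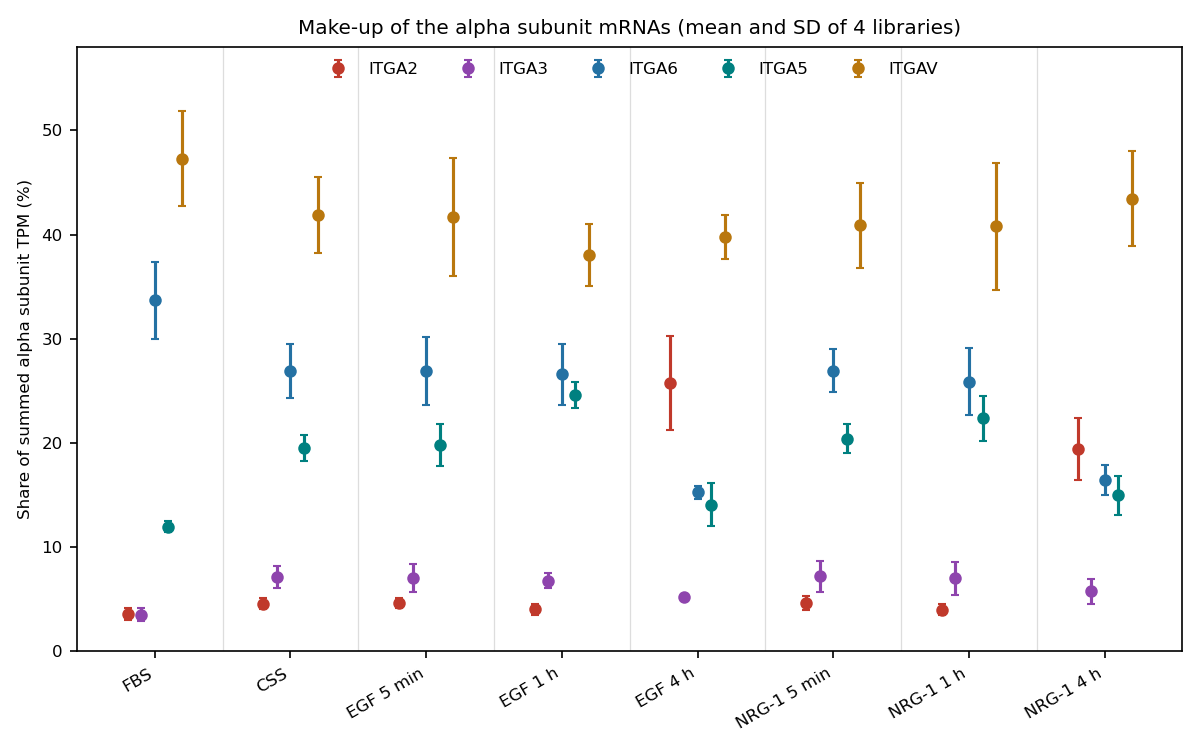
Share of each alpha subunit in the summed TPM of the 5 alpha subunits, in percent, for the 8 groups; points are means and bars the SD of 4 libraries. ITGA2 is the lowest or nearly the lowest share in all groups but those of 4 hours, where it reaches 25.8% with EGF and 19.4% with NRG-1 and stands above ITGA6 and ITGA5.

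EGF and NRG-1 were compared directly at each time. At 4 hours 1 of the 9 genes, ITGA2, differed, against 1.66% of all genes tested. It was higher with EGF by 0.58 on the log2 scale (SE 0.10, 1.49-fold, edgeR adjusted p = 0.00112). The pooled ranges overlapped, at 88.7 to 141 CPM and 64.4 to 91.4 CPM, but within each batch both EGF libraries were above both NRG-1 libraries. The difference was 0.67 within batch 1 (adjusted p = 0.000303) and 0.47 within batch 2 (adjusted p = 0.773), and without the batch term the adjusted p was 0.0909.

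ITGB6 and LAMB3 showed differences of similar size in the same comparison, 0.79 (SE 0.22) and 0.65 (SE 0.18), with adjusted p values of 0.0645 and 0.0612 by edgeR. With the replicate block they passed (adjusted p = 0.0205 and 0.00844), as they did by DESeq2 (adjusted p = 0.0303 and 0.0347). The ITGB6 difference was 1.23 within batch 1 and 0.33 within batch 2, and that of LAMB3 was 0.65 and 0.66. The adjusted p of ITGB6 fell below 0.05 without batch 2 replicate 1 of EGF (0.94) or batch 2 replicate 2 of NRG-1 (0.95). That of LAMB3 did so without batch 1 replicate 1 of NRG-1 (0.81) or batch 2 replicate 2 of EGF (0.75). For the other 6 genes the 95% intervals of the log2 difference lay between -0.19 and 0.36.

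At 5 minutes and 1 hour 0 of the 9 genes differed between the ligands, against 0% and 1.06% of all genes tested (edgeR). At 1 hour 2 genes had an unadjusted p below 0.05, ITGA5 and ITGB6, and at 5 minutes 0 did. With the replicate block ITGA5 passed at 1 hour, higher with EGF by 0.19 (adjusted p = 0.0133). DESeq2 and limma called 0 at both times. For the difference between the ligands in the change from 1 hour to 4 hours, 0 of the 9 genes passed by edgeR, DESeq2 or limma, against 0.506% of all genes tested by edgeR. ITGA2 was the 1 gene with an unadjusted p below 0.05 (0.52, SE 0.15, edgeR adjusted p = 0.155).

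From 1 hour to 4 hours, 6 of the 9 genes rose and 2 fell with EGF, against 44.0% of all genes tested called in either direction, and 6 rose and 1 fell with NRG-1, against 37.5%. ITGA2 (3.24 and 2.72), LAMB3 (2.90 and 2.60) and ITGB6 gave the largest steps on the log2 scale. ITGA3 did not pass with either ligand (0.18 and 0.17), but passed with the replicate block (adjusted p = 0.0301 and 0.0442), as did the NRG-1 step of ITGA5 (-0.13, adjusted p = 0.0135). Without batch 2 replicate 2 of NRG-1 at 4 hours, the NRG-1 step of ITGA3 passed as well (0.26, adjusted p = 0.0331). The fall of ITGA6 with NRG-1 (-0.20) did not pass without the batch term (adjusted p = 0.104), with only the groups compared in the fit (0.0958), in batch 2 alone (0.414) or with limma on TPM (0.138 to 0.186).

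Cells in FBS differed from those in CSS by another set of values. Here 1 of the 9 genes was higher, ITGA6, and 5 were lower, against 26.0% and 26.8% of all genes tested. ITGA3, a receptor subunit for laminin, was the only DEG, against 3.80% of all genes that were lower DEGs. ITGB4, ITGA5, ITGA2 and ITGB1 were lower by less, and ITGAV, ITGB6 and LAMB3 did not pass (0.08, SE 0.08; 0.05, SE 0.46; and -0.28, SE 0.24).

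ITGA3 was at 7.68, 5.90, 5.86 and 4.94 CPM in FBS and at 14.2, 15.3, 12.5 and 11.1 CPM in CSS, so that the groups were well apart (log2 fold change -1.12, SE 0.11, edgeR adjusted p = 7.32e-10). ITGB4 was at 1.65, 1.42, 1.61 and 1.29 CPM in FBS, again below every CSS library (-0.94, SE 0.14, edgeR adjusted p = 1.61e-06). ITGA5 was at 18.2, 16.3, 19.6 and 16.4 CPM, likewise below CSS (-0.79, SE 0.08, edgeR adjusted p = 1.15e-09). Each of these differences had nearly the same size in both batches.

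ITGA2 was at 11.1, 10.6, 10.9 and 7.34 CPM in FBS (log2 fold change -0.42, SE 0.11, edgeR adjusted p = 0.00134), and without the last library, which stood apart, it was -0.34 (edgeR adjusted p = 0.00931). ITGB1 stood at 604 ± 9.77 CPM in FBS and was lower by a small amount (-0.20, SE 0.04, edgeR adjusted p = 0.000567). ITGA6 was at 76.0, 71.2, 65.1 and 59.6 CPM and overlapped CSS when the batches were pooled (0.24, SE 0.05, edgeR adjusted p = 0.000647). On log2(TPM + 1) with limma its difference was 0.04 (adjusted p = 0.793), so that the call held on counts and not on TPM. Within batch 2 alone ITGA2 (-0.41), ITGB1 (-0.22) and ITGA6 (0.22) did not pass (adjusted p = 0.0818, 0.0848 and 0.148). The basal keratin KRT14, chosen after its values were seen, was higher in FBS by 3.84 (SE 0.33, edgeR adjusted p = 8.28e-12). Of the 8 tested markers of other cells it was the 1 that was higher, and 2 were lower. The median log2 fold change of these markers was -0.10, and 26.0% of all genes tested were higher and 26.8% lower. The part of KRT14 in these differences was not tested. In FBS, ITGA6 held 33.7 ± 3.69% and ITGAV 47.3 ± 4.60% of the summed alpha TPM, and ITGA3 3.48 ± 0.625%.

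Set against FBS rather than CSS, 8 of the 9 genes were higher and ITGA6 was lower at 4 hours with each ligand, against 62.4% of all genes tested called in either direction with EGF and 57.2% with NRG-1. The DEGs in both were ITGA2, ITGA3, ITGB4, ITGB6 and LAMB3, against 8.24% and 7.46% of all genes that were higher DEGs. ITGB4 was higher by 1.81 and 1.70, and ITGA3 by 1.24 and 1.21, on the log2 scale. The ligand groups were in CSS, so that these comparisons hold the change of serum as well as the ligand, and the parts cannot be told apart. ITGA3 did not pass against CSS at 4 hours with either ligand and was lower in FBS than in CSS. These comparisons also share the ligand libraries with those above.

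Ordered by their mean level, the groups fell into few steps. For ITGA2, LAMB3, ITGAV and ITGB1, EGF and NRG-1 at 4 hours overlapped each other and lay above all other groups, and for ITGB4 the lower of these groups overlapped the next. For ITGB6, 1 hour of NRG-1 was also above the group next below it by mean (FBS). It overlapped 5 minutes of NRG-1, however (lowest 0.159 CPM against highest 0.179 CPM). For ITGB6, 4 hours of NRG-1 was above 1 hour of EGF. For ITGA3, ITGA5, ITGB4 and ITGB1, FBS was the lowest group and did not overlap the next. For ITGA6 every group overlapped its neighbour. The 5-minute groups overlapped CSS for all 9 genes. The share of all genes tested whose groups separate in these ways was not computed. These overlaps therefore describe the 9 genes and are not read as a trait particular to them.

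Over the 32 libraries, with batch means removed, ITGA2 and LAMB3 followed each other most closely (Pearson r = 0.97 of log2 CPM), then ITGB6 and LAMB3 (0.90). ITGA3 and ITGA5 formed another close pair (0.89). ITGA6 ran opposite to ITGB1 (-0.86) and was negatively correlated with each of the other 8 genes. The libraries share their groups, so that these values largely restate the group differences above.

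The genes most like each of the 9 over the same 32 libraries were sought among the 12018 genes whose log2 CPM averaged 1 or more, and they are given as a description. LHFPL2 and TSPAN5, a tetraspanin, were closest to ITGA2 (both r = 0.99). MYO1E, a class I myosin, and HMGA1 were closest to LAMB3 (both 0.99), and PALLD, an actin-associated protein, and CREBZF to ITGB6 (0.97 and 0.96). IL6ST, the shared receptor subunit of the IL-6 family, and ACSL4 were closest to ITGB1 (0.97 and 0.96). For ITGA3 they were MVP and ARNT2, for ITGA5 KDM5B and SLC20A2, for ITGA6 ARHGAP19 and PDS5B, for ITGAV IBTK and PCGF5, and for ITGB4 MFSD6 and ATP6V0A1, with r from 0.97 to 0.98. LHFPL2 went from 8.30 ± 0.463 CPM in CSS to 111 ± 20.2 CPM (EGF) and 83.1 ± 15.3 CPM (NRG-1) at 4 hours.

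Other genes of cell adhesion were counted from lists, against 24.6% of all genes tested that were higher and 24.6% that were lower at 4 hours of EGF, and 21.6% and 21.0% at 4 hours of NRG-1. Several of the counts lie near these shares. Of 14 other integrin subunits tested (of 18), 5 were higher and 2 lower at 4 hours of EGF, and 4 higher and 2 lower with NRG-1, and the median log2 fold change was 0.41 and 0.12. ITGA1, another collagen receptor subunit, rose by 1.42 (SE 0.17, edgeR adjusted p = 3.59e-08) and 1.28 (SE 0.17, edgeR adjusted p = 3.47e-07). ITGB8, which like ITGB6 pairs with ITGAV to bind latent TGF-beta, rose by 1.61 and 1.67 (both SE 0.27), from 8 to 21 reads in CSS. ITGB7, a leukocyte subunit, fell from 0.628 ± 0.112 CPM to 0.164 ± 0.0940 after EGF and 0.219 ± 0.0593 after NRG-1. ITGAX, another leukocyte subunit, had 0 reads in every CSS library and 3 to 15 with EGF, at least 3.25-fold and 3.04-fold above a floor of 3 reads per library with EGF and NRG-1.

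Of the 11 other laminin chains, 4 were higher at 4 hours of EGF and 3 with NRG-1, 0 were lower, and the medians were 0.15 and -0.04. The counts of higher chains are not far from the 24.6% and 21.6% of all genes. LAMA3, the alpha chain that joins LAMB3, was chosen after its values were seen and did not pass (0.05 and -0.15, both SE 0.15). LAMC1, the gamma chain of most other laminins, rose by 1.66 and 1.41 (both SE 0.14), from 235 ± 21.5 to 746 ± 117 CPM after EGF and 627 ± 139.6 CPM after NRG-1. At 1 hour 0 of the other integrin subunits and 0 of the other laminin chains passed with either ligand. Of all genes tested, 9.51% were called in either direction at 1 hour with EGF and 6.73% with NRG-1. With lists this short, counts of 0 are not far from these shares.

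All 29 adhesion adaptors, the proteins that link integrin tails to actin, were tested. At 4 hours 14 were higher and 1 lower with EGF, and 15 higher and 3 lower with NRG-1, with medians of 0.18 and 0.21. Of all genes 24.6% were higher with EGF and 21.6% with NRG-1. ZYX (zyxin) rose by 2.76 and 2.72 (both SE 0.07), VCL (vinculin) by 1.85 and 1.64 (both SE 0.12), FLNA (filamin A) by 1.66 and 1.67 (both SE 0.14) and LIMS2 by 1.79 and 1.58 (both SE 0.26). TLN2, a talin, fell by 0.87 and 0.80 (both SE 0.18). Within batch 2 alone TLN2 did not pass (edgeR adjusted p = 0.215 and 0.181), nor did it with NRG-1 without the batch term (edgeR adjusted p = 0.0755). At 1 hour 5 adaptors were higher with EGF and 4 with NRG-1, against 9.51% and 6.73% of all genes called in either direction, among them ZYX (1.85 with EGF, edgeR adjusted p = 1.82e-18, and 1.42 with NRG-1, edgeR adjusted p = 1.24e-15).

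Of 12 hemidesmosome and lateral partners of integrins, 4 were higher and 3 lower with EGF, and 4 higher and 2 lower with NRG-1, with a median of 0.15 in each. These counts are near the shares of all genes, 24.6% in each direction with EGF, and 21.6% higher and 21.0% lower with NRG-1. DST (dystonin), a linker of hemidesmosomes to keratin, rose by 1.01 with EGF (SE 0.18, edgeR adjusted p = 2.34e-05). With NRG-1 its value was 0.37 (SE 0.18, adjusted p = 0.101, or 0.0133 with the replicate block). DAG1 (dystroglycan), a laminin receptor outside the integrin family, fell by 0.37 and 0.39 (both SE 0.10). Within batch 2 alone DAG1 did not pass with either ligand (edgeR adjusted p = 0.282 and 0.183).

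Of 18 other matrix ligands tested (of 22), 7 were higher and 1 lower with each ligand, with medians of 0.22 and 0.17, against 24.6% of all genes higher and 24.6% lower with EGF, and 21.6% and 21.0% with NRG-1. TGFB1, whose latent form is the ligand of the ITGAV-ITGB6 receptor, went from 4 to 11 reads in CSS to 419 to 610 reads after EGF and 352 to 613 after NRG-1 (log2 fold change 6.04 and 5.98, both SE 0.28). TNC (tenascin C) rose by 3.78 and 3.62 (SE 0.29 and 0.30), NID1 (nidogen) by 2.68 and 2.43 (both SE 0.35) and THBS1 (thrombospondin 1) by 0.94 and 0.93 (both SE 0.12). COL4A2, a chain of basement membrane collagen, fell by 1.33 and 1.13 (both SE 0.15). With these lists, too, EGF and NRG-1 share the CSS libraries and are set side by side only.

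**Figure D4:**
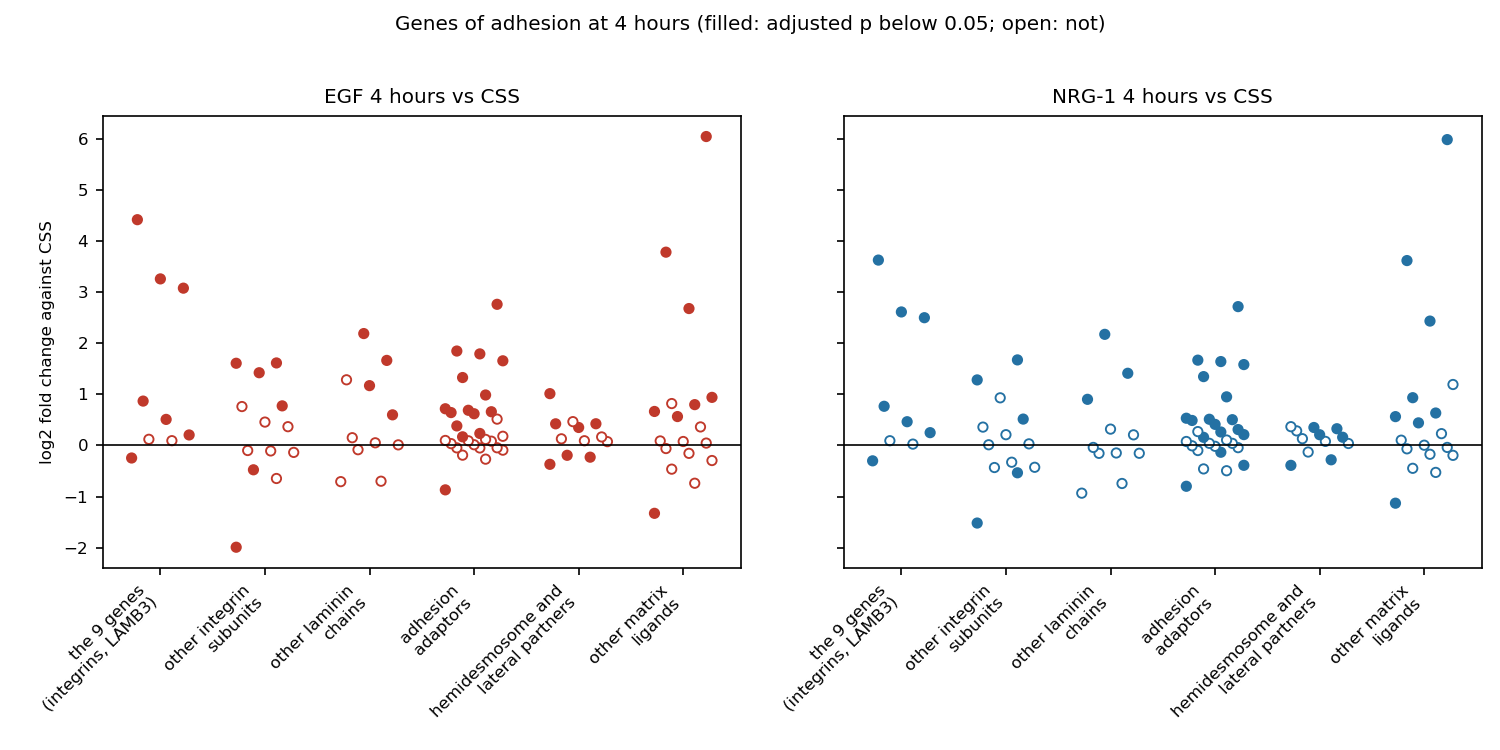
Log2 fold change against CSS at 4 hours of EGF (left) and NRG-1 (right) for the 9 genes and for the tested genes of each adhesion list; filled points passed the test (adjusted p below 0.05). ITGAX, with 0 reads in CSS, is left out. The highest points are TGFB1 (6.04 and 5.98) among the ligands and ITGB6 (4.42 and 3.63) among the 9 genes, and the lowest is ITGB7 (-1.99 and -1.52).

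Among the luminal markers at 4 hours, 3 were higher and 5 lower with EGF, and 2 higher and 5 lower with NRG-1, against the same shares of all genes (24.6% and 24.6%, 21.6% and 21.0%). The median log2 fold change of these markers was -0.46 with EGF and -0.38 with NRG-1, and that of all genes tested was -0.02 and -0.01. Against this median, KRT8 rose by 1.63 and 1.43 (both SE 0.07). Of the 14 markers of other cells, 8 were tested and the summed level at 4 hours, 1.83 to 2.47 TPM with EGF and 1.73 to 2.69 TPM with NRG-1, was below that of CSS (3.01 to 3.97 TPM). VWF fell by 1.16 and 1.00 (both SE 0.14), and the basal keratin KRT15 had 0 to 1 reads in CSS, 5 to 18 after EGF and 2 to 5 after NRG-1. The part of these markers in the changes of the 9 genes was not tested.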

How the data were processed

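Poly(A)-selected, stranded RNA-seq libraries of LNCaP cells were analysed in 8 groups of 4, named by batch and replicate as in the labels. The authors deposited expected counts per gene, which are estimates from RSEM that divide reads shared between genes, so that 11.2% of the values are not whole numbers. The authors also deposited TPM values, which are normalized for transcript length and library total. The submitters' processing notes name Trimmomatic 0.36, STAR 2.7.0f, RSEM and hg19, and the annotation release is not given in the sources used here.

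Expected counts were rounded. Genes reaching 5 counts in 3 or more libraries (16995 of 25498) were scaled by TMM and fitted over all 32 libraries with edgeR 4.0.16 (R 4.3.3) as group plus batch. Quasi-likelihood tests gave p values that were adjusted by the Benjamini-Hochberg method over all genes kept. An adjusted p below 0.05 was a call, and a DEG also had a log2 fold change beyond 1. CPM was computed with TMM factors. Correlations used log2 CPM with a prior count of 2. Alternatives were DESeq2 1.42.0, limma 3.58.1 on log2(TPM + 1) with a TPM minimum of 1, other pseudocounts, filters and batch terms, and leaving out each library. The edgeR fit was tested on simulated counts for EGF at 4 hours. It recovered 99 of 100 genes changed by 1 on the log2 scale and 100 of 100 changed by 2, with 15 false calls among 16792 genes. The simulated counts had no batch effect and no deviations shared by same-numbered libraries, and genes with few reads were not changed. These rates may therefore not hold for the real libraries.

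The labels place same-numbered libraries in a shared batch, and all 112 same-numbered pairs deviated together from their group means (r from 0.13 to 0.57). After batch means were removed, 54 of the 112 pairs had r above 0.1 (-0.06 to 0.43). With 2 libraries per group in a batch, both replicates then give the same r, so that these pairs are not separate values. In batch 1 only FBS with NRG-1 at 4 hours was above 0.1 (0.106), and the others were in batch 2. The fit with a replicate block is given where it changed a call.

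The 9 genes and the adhesion and marker lists were chosen with earlier results of these data known. The text names all 9 genes, the 2 genes closest to each by correlation, and from each list the largest rise and fall at 4 hours and every gene that was a DEG with both ligands, except for items that are not reported here. Promoters were RefSeq windows on GRCh38.p14, a build other than that of the files, and were matched by symbol only. Total counts of 63822654 to 92401724 per library limit the precision of genes with few reads.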

Additional observations from a re-analysis of the deposited data

Results flagged for a closer look

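ITGA2 stood at 7.34 CPM in FBS batch 2 replicate 2, whereas the other 3 FBS libraries lay between 10.6 and 11.1 CPM. ITGA6 stood at 39.2 CPM in batch 2 replicate 2 of NRG-1 at 4 hours, with the other 3 libraries between 48.5 and 50.4 CPM. ITGAV stood at 169.7 CPM in the same NRG-1 library, with the other 3 between 145.0 and 145.7 CPM. In each case the gap to the nearest library took most of the range of the group. Chance alone puts about 1 group in 20 past this limit, which is 3.6 of the 72 groups examined, and 3 were found.

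ITGA2 differed between the ligands at 4 hours, higher with EGF than with NRG-1 by 0.58 on the log2 scale by a direct test (edgeR adjusted p = 0.00112).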

How the results depend on the processing

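Under no alternative did a call on the 9 genes or the named list genes reverse, while 24 calls on the 9 genes were gained and 46 lost. On the named list genes at 4 hours, 1 call was gained and 9 were lost. The rises of ITGA2, ITGB6 and LAMB3 at 4 hours passed with each ligand under each alternative that tested the gene, but ITGB6 fell below the TPM minimum and the filter of at least 10 counts in every library and has no value there. Leaving out single libraries gave 3.02 to 3.14 for ITGA2, 4.21 to 4.58 for ITGB6 and 3.17 to 3.40 for LAMB3 with EGF. On log2(TPM + 1), which compresses low levels, the EGF and NRG-1 values were smaller, at 1.66 and 1.17 for LAMB3, 0.77 and 0.47 for ITGB6 (without a filter) and 2.63 and 2.07 for ITGA2. With EGF at 1 hour the count of 2 genes became 1 with at least 10 counts in every library, 1 in batch 2 alone, 0 with limma on log2(TPM + 1), 0 when 0.1 was added instead of 1 and 1 with limma without a filter. With NRG-1 at 1 hour the count of 0 became 1 by DESeq2, 2 with the replicate block, and 0 to 1 when a library was left out. In batch 2 alone, with 2 libraries per group, 3 genes passed with EGF at 4 hours (of 7), 3 with NRG-1 at 4 hours (of 7), 3 in FBS (of 6), 4 from 1 to 4 hours with EGF (of 8) and 3 with NRG-1 (of 7). Between the ligands at 1 hour the count of 0 became 1 with the replicate block. Between the ligands at 4 hours the count of 1 became 3 by DESeq2, 2 with at least 10 counts in every library, 0 without a batch term, 3 with the replicate block, 3 in batch 1 alone, 0 in batch 2 alone, 2 with limma, 0 with 0.1 added instead of 1, 3 with limma without a filter and 1 to 2 when a library was left out. Batch 1 alone, also with 2 libraries per group, only gained calls on the 9 genes (2), whereas batch 2 alone lost 23. Apart from the genes that a filter removed, the cause of these shifts was not tested. Pairing by the replicate block changed no call on the 9 genes other than those given above. Depth limits ITGB6 most, at 5 to 11 reads per CSS library.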
